A study of Rattus norvegicus with 84 samples.

Results

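Microglia are the resident macrophages of the brain, and 9 genes of these cells and of their growth factor were followed through nucleus accumbens tissue of Long-Evans rats. The members were taken by name: Csf1r, P2ry12, Cx3cr1, Tmem119, Trem2, Aif1, C1qa and C1qb, which microglia are known for, and Csf1, which encodes the growth factor that Csf1r binds. They are 9 of the 41919 genes in the deposited counts, and all 9 passed the filter on low counts. The animals carried no named allele (genotype wild-type) and RNA came from Shell or Core, the 2 subregions of the accumbens. Each subregion was sampled in the conditions Ext (extinction), Ctx and HC, the last 2 of which the labels do not spell out, with Coc (cocaine) and Sal (saline) in each. That makes 12 groups of 7 libraries, 84 in all. Their age, sex and route of drug are not in the labels, which also do not say that each library is a separate animal. The p-values therefore measure the spread between these libraries. The study set cocaine withdrawal beside extinction.

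Signalling through the CSF1 receptor keeps microglia alive, and its ligands are CSF1 and IL34. In the mouse brain CSF1 is made by several cell types, among them astrocytes and oligodendrocytes, and by microglia themselves. P2RY12, CX3CR1 and TREM2 are surface receptors through which microglia sense nucleotides, neuronal fractalkine and lipids, and C1q is the complement protein with which they tag material for removal. In bulk RNA, fewer microglia and less of an RNA per microglial cell cannot be told apart.

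Promoters are shown for C1qa and C1qb, the members that moved most closely together across libraries, and for Trem2, whose correlations with the other microglial genes had the lowest median with group and series means removed, though not once the receptor-gene level was removed as well. Promoters of 5 of the 9 members were in the RefSeq table of build GRCr8 (Trem2, Cx3cr1, Csf1r, C1qa and C1qb). Each holds 300 bases and runs 5' to 3' along the gene, most of it before the start and the end of it after. Capitals mark GAGGAA and GGAAGT, parts of the consensus of the macrophage factor PU.1, read on both strands (TTCCTC and ACTTCC on the other), and picked after the sequences had been seen. The strand of all 3 genes is minus. The windows are chr5:154419884-154420183 for C1qa, chr5:154407778-154408077 for C1qb and chr9:20151730-20152029 for Trem2.
C1qa: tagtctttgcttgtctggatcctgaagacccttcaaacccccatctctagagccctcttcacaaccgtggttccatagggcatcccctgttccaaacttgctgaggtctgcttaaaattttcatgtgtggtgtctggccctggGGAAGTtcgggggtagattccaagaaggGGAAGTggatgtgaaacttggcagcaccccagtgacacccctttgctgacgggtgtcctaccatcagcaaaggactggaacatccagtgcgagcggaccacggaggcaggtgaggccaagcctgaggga
C1qb: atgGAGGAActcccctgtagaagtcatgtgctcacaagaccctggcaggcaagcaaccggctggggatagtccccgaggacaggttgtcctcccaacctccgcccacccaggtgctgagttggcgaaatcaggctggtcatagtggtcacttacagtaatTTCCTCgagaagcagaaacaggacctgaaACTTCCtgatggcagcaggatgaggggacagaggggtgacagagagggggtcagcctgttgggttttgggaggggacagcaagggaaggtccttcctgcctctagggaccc
Trem2: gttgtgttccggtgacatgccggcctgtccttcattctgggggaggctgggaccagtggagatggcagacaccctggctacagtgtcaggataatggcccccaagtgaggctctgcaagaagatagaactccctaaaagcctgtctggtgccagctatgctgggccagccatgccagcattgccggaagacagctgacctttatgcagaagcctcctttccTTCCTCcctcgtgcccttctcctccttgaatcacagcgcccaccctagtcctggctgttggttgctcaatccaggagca

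C1qa held GGAAGT 2 times and C1qb held GAGGAA 2 times and GGAAGT 1 time. Trem2 held GAGGAA 1 time. Among all 33469 promoters of the table, 27.6% held GAGGAA, 22.6% GGAAGT and 42.3% at least 1 of them, so a match is common. C1qa and C1qb lie near each other on chromosome 5, with C1qc, which encodes the remaining chain of C1q, next to each of them.

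Levels across genes were compared per length, in FPKM as deposited, where the length spans the whole gene body. C1qa, the A chain of C1q, stood highest at 2.60 ± 0.607 FPKM, and C1qb, the B chain, followed at 1.37 ± 0.234 (SD, n = 84 here and for the next 7 genes). Csf1 had 0.842 ± 0.185 FPKM, Aif1 0.795 ± 0.141, Cx3cr1 0.789 ± 0.133, Csf1r 0.750 ± 0.0939 and Tmem119 0.720 ± 0.161, values that lie within 1 SD of each other. Trem2 had 0.544 ± 0.138 FPKM and P2ry12 0.423 ± 0.0444, the lowest. This order depends on the lengths, which ran from 2848 bases for C1qa to 43746 for Csf1r. In counts scaled to library size by TMM (CPM), with no length, Csf1r was highest (means of 30.0 in Shell and 37.0 in Core). C1qa had 6.49 and 9.12 CPM, P2ry12 17.6 and 18.9, and Trem2 was lowest at 3.14 and 3.98. Counts behind these values were modest: Trem2 had 31 to 104 counts per library, Tmem119 40 to 142, Aif1 45 to 129, C1qa 61 to 254 and C1qb 68 to 209. Cx3cr1 had 118 to 327 counts, Csf1 147 to 454, P2ry12 209 to 470 and Csf1r 411 to 925. None of the 9 was at 0 in any library. Tyrobp and Itgam, further markers of microglia, also had counts in every library, which by itself does not show expression. The share of their counts that fall evenly over gene bodies was not estimated.

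Libraries held 13.6 to 22.5 M counts (M). Counts at 1570 olfactory and vomeronasal receptor genes, which most brain cells do not use, gave a measure of counts that fall evenly over gene bodies. Extended to all genes at the same rate per base, they amounted to 22.1% ± 8.24 of the counts of a Shell library and 18.9% ± 16.2 of a Core library (SD, n = 42 each). The Core Ctx_Coc library 17-F stood apart at 93.8%, and without it the Core estimate was 17.0% ± 11.1 (SD, n = 41). At that rate the median share of a member's own counts was 42.9% for P2ry12, 31.3% for Trem2, 12.4% for C1qb and 7.14% for C1qa, and 21.1% to 23.9% for the other 5. Reads of P2ry12 and the overlapping Med12l, and of Cx3cr1 and Csf1 and a non-coding RNA that overlaps each (LOC134480114 and LOC120100914), cannot be told apart here.

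Across Shell and Core, 8 of the 9 members were lower in Shell and P2ry12 did not pass the test. Csf1 and the complement gene C1qa were the furthest apart, at 1.34-fold and 1.40-fold lower, and the other 6 called members were 1.19-fold to 1.27-fold lower. The test was edgeR's quasi-likelihood test on all 84 libraries, with adjusted p (Benjamini-Hochberg over 32145 genes) under 0.05 as the call. Over all genes 8.77% were called lower in Shell, and the median log2 fold change was 0.05, beside a median of -0.33 over the 9 members. For Csf1r, C1qa, C1qb, Csf1, Tmem119 and Trem2, the mean of every Shell group lay below the mean of every Core group.

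**Figure D1:**
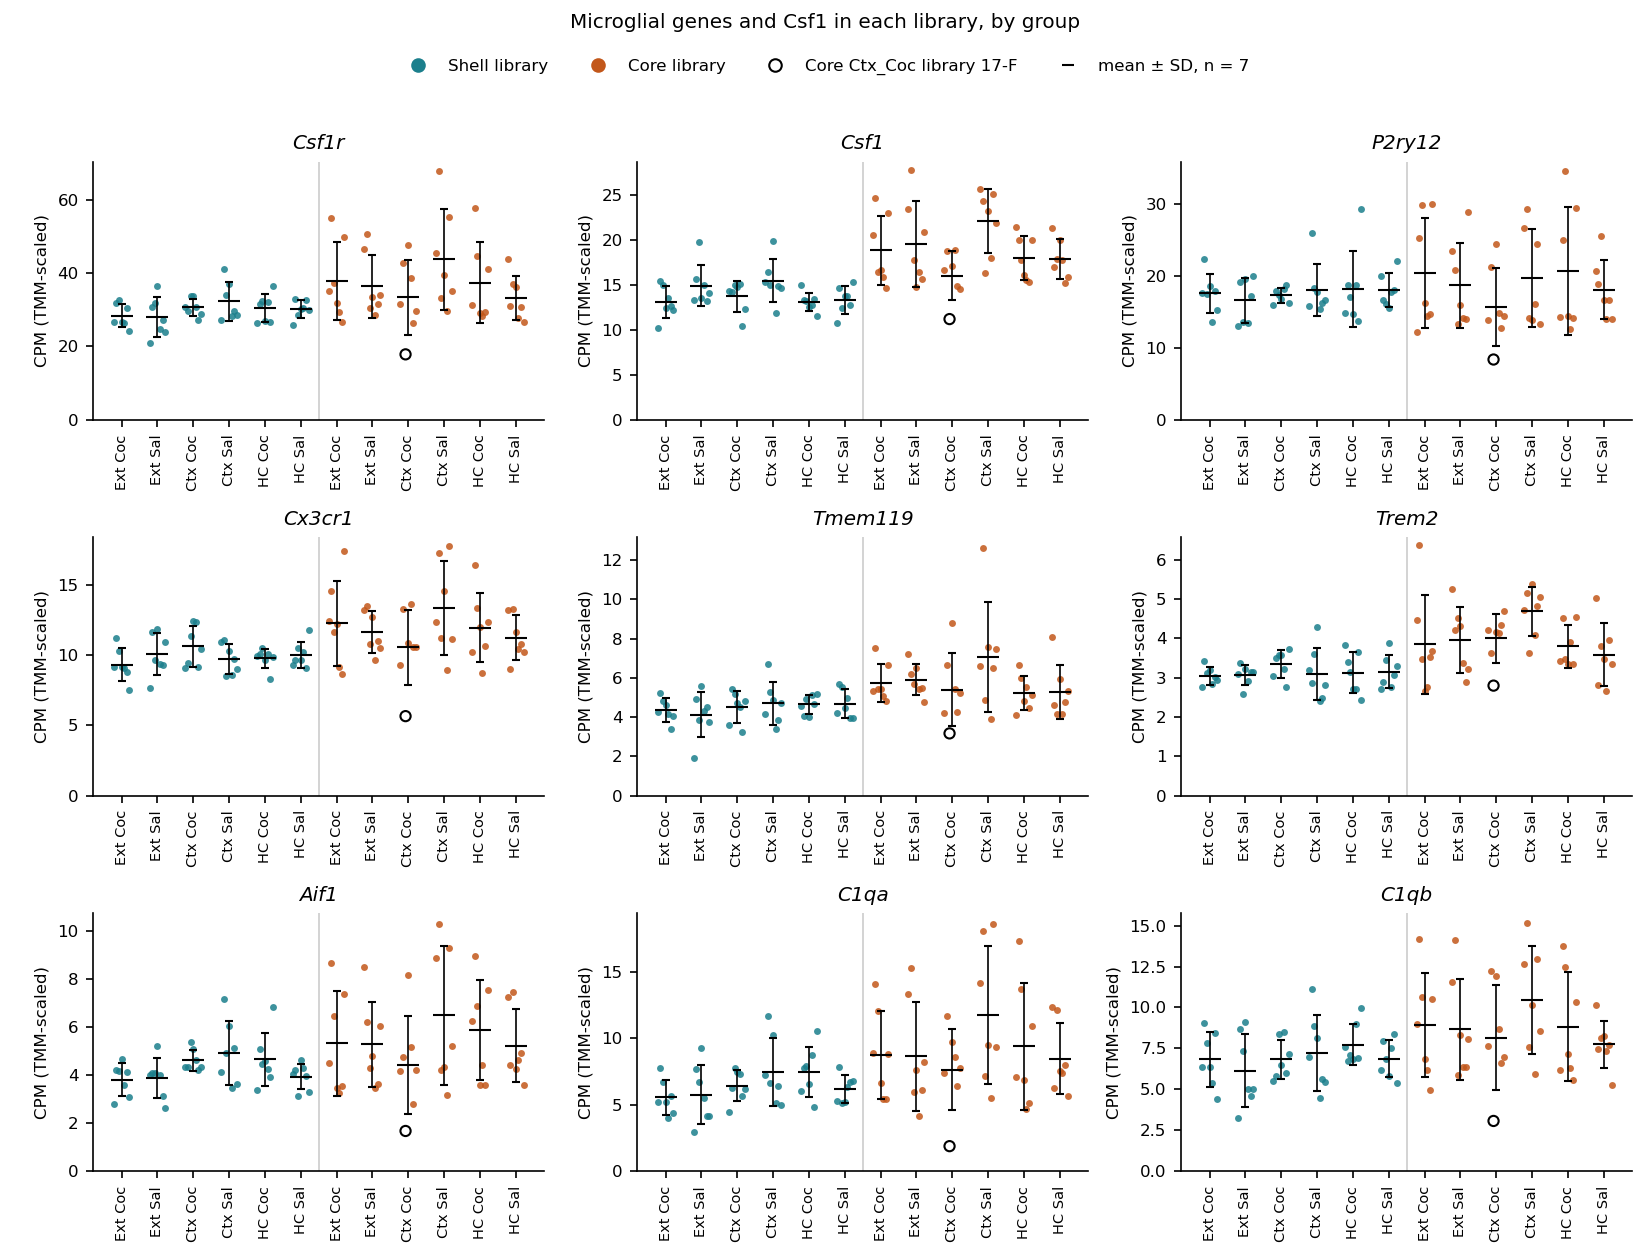
Level of each gene in every library, as CPM (counts scaled to library size by TMM, vertical axis), for the 6 Shell groups and then the 6 Core groups. Bars give mean ± SD of 7 libraries and the open circle is the Core Ctx_Coc library 17-F. Csf1 runs from 10.2 to 19.9 CPM in Shell and from 11.2 to 27.9 CPM in Core, and in the Core groups the microglial genes spread more widely.

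Among the receptors, Csf1r ranged in Shell libraries over 20.8, 30.0 and 41.0 CPM (lowest, median and highest of 42), against 17.8, 33.7 and 67.9 CPM in Core libraries. The subregions overlapped, with 38 of 42 Shell libraries below the Core mean of log2 CPM, the measure used for such counts of libraries. The log2 fold change was -0.30 ± 0.07 (SE, adjusted p = 0.000531, edgeR). Trem2, the lipid receptor that signals through Tyrobp, had 2.41, 3.12 and 4.29 CPM in Shell libraries, against 2.65, 3.93 and 6.37 CPM in Core libraries. Here 41 of 42 Shell libraries lay below the Core mean, and the log2 fold change was -0.34 ± 0.06 (adjusted p = 6.78e-06, edgeR). Cx3cr1, the fractalkine receptor, had 7.52, 9.67 and 12.5 CPM in Shell libraries and 5.65, 11.4 and 17.8 CPM in Core libraries. Most Shell libraries (37 of 42) were below the Core mean, with a log2 fold change of -0.25 ± 0.06 (adjusted p = 0.000639, edgeR).

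P2ry12, the ADP receptor that directs microglial processes, had 13.0, 17.5 and 29.3 CPM in Shell libraries, against 8.39, 16.1 and 34.6 CPM in Core libraries. The Shell median was the higher, and the Shell mean of 17.6 CPM was below the Core mean of 18.9 CPM. On log2 CPM, 27 of 42 Shell libraries lay below the Core mean. Its log2 fold change of -0.08 ± 0.08 did not pass (adjusted p = 0.467, edgeR), and in the deposited FPKM, with no TMM scaling, its mean was 0.432 in Shell and 0.414 in Core. The direction of P2ry12 thus turned with the scaling, while in FPKM the other 8 had lower means in Shell, for example Csf1 with 0.752 ± 0.143 FPKM in Shell and 0.931 ± 0.181 FPKM in Core (SD, n = 42 each).

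The ligand gene Csf1 differed with the smallest error: the log2 fold change was -0.42 ± 0.05 (adjusted p = 3.13e-10, edgeR), with 40 of 42 Shell libraries below the Core mean. In Ext_Coc it had 10.2, 12.7 and 15.4 CPM in Shell libraries (lowest, median and highest of 7) and 14.7, 16.7 and 24.7 CPM in Core libraries. In Ext_Sal it had 13.2, 14.1 and 19.8 CPM in Shell libraries and 14.8, 17.8 and 27.9 CPM in Core libraries. In both Ext groups the ranges overlapped, by little in Ext_Coc. In Ctx_Coc it had 10.5, 14.3 and 15.1 CPM in Shell libraries and 11.2, 16.7 and 18.9 CPM in Core libraries. The lowest Core value there belongs to 17-F, and without it the Core values started at 14.5 CPM. In Ctx_Sal it had 11.9, 15.0 and 19.9 CPM in Shell libraries and 16.4, 23.2 and 25.6 CPM in Core libraries, the group with the highest Csf1 mean of all 12 (22.1 ± 3.59 CPM, SD, n = 7). In HC_Coc it had 11.5, 13.2 and 15.0 CPM in Shell libraries and 15.3, 17.8 and 21.5 CPM in Core libraries. HC_Coc was the group in which every Shell library lay below every Core library. In HC_Sal it had 10.8, 13.8 and 15.4 CPM in Shell libraries and 15.2, 17.8 and 21.4 CPM in Core libraries, which overlapped slightly.

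Tmem119, a membrane protein used to mark microglia, had 1.93, 4.54 and 6.70 CPM in Shell libraries (lowest, median and highest of 42) and 3.17, 5.43 and 12.6 CPM in Core libraries. The log2 fold change was -0.35 ± 0.07 (adjusted p = 0.000234, edgeR), with 40 of 42 Shell libraries below the Core mean. Aif1, which encodes the calcium-binding protein IBA1, had 2.62, 4.21 and 7.16 CPM in Shell libraries and 1.68, 4.70 and 10.3 CPM in Core libraries. Its log2 fold change was -0.32 ± 0.10 (adjusted p = 0.0160, edgeR), with 34 of 42 Shell libraries below the Core mean. Aif1 was not called with the replicate block (-0.20, adjusted p = 0.126, edgeR) or with no F series (-0.25, adjusted p = 0.145, edgeR).

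Both C1q chain genes were lower in Shell. C1qa had 2.95, 6.39 and 11.6 CPM in Shell libraries and 1.89, 7.88 and 18.6 CPM in Core libraries, and C1qb had 3.29, 6.90 and 11.1 CPM in Shell libraries and 3.08, 8.09 and 15.1 CPM in Core libraries. The Core values reached much further up, and 37 of 42 Shell libraries for C1qa and 31 of 42 for C1qb lay below the Core mean. The log2 fold changes were -0.48 ± 0.12 for C1qa (adjusted p = 0.00139, edgeR) and -0.33 ± 0.10 for C1qb (adjusted p = 0.00962, edgeR).

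The library Core Ctx_Coc 17-F held the lowest Core value of every member but Trem2. Without it the Core values started at 26.4 CPM for Csf1r, 8.65 for Cx3cr1, 12.3 for P2ry12, 3.88 for Tmem119, 2.81 for Aif1, 4.16 for C1qa and 4.94 for C1qb. Without Core Ctx_Coc 17-F the same 8 members were lower, with log2 fold changes of -0.27 to -0.51, and 13.7% of all genes were called lower. The numbered series 1 and 2 hold Core libraries and series 3 and 4 hold Shell libraries, so there the subregion and the series cannot be told apart. The F series holds 12 libraries of each subregion. Within it all 9 estimates were below 0 (-0.21 to -0.59) and none passed (adjusted p = 0.325 to 0.508, edgeR), where 0.176% of all genes were called lower. Within the F series and without 17-F the estimates were -0.31 to -0.72, the lowest for C1qa (-0.72 ± 0.21), and again none passed (adjusted p = 0.0525 to 0.194, edgeR). At adjusted p under 0.05, 1.22% of all genes were called lower there, and the median over all genes was 0.40. At unadjusted p under 0.05, 8 of the 9 members passed, as did 17713 of 34006 genes in either direction.

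**Figure D2:**
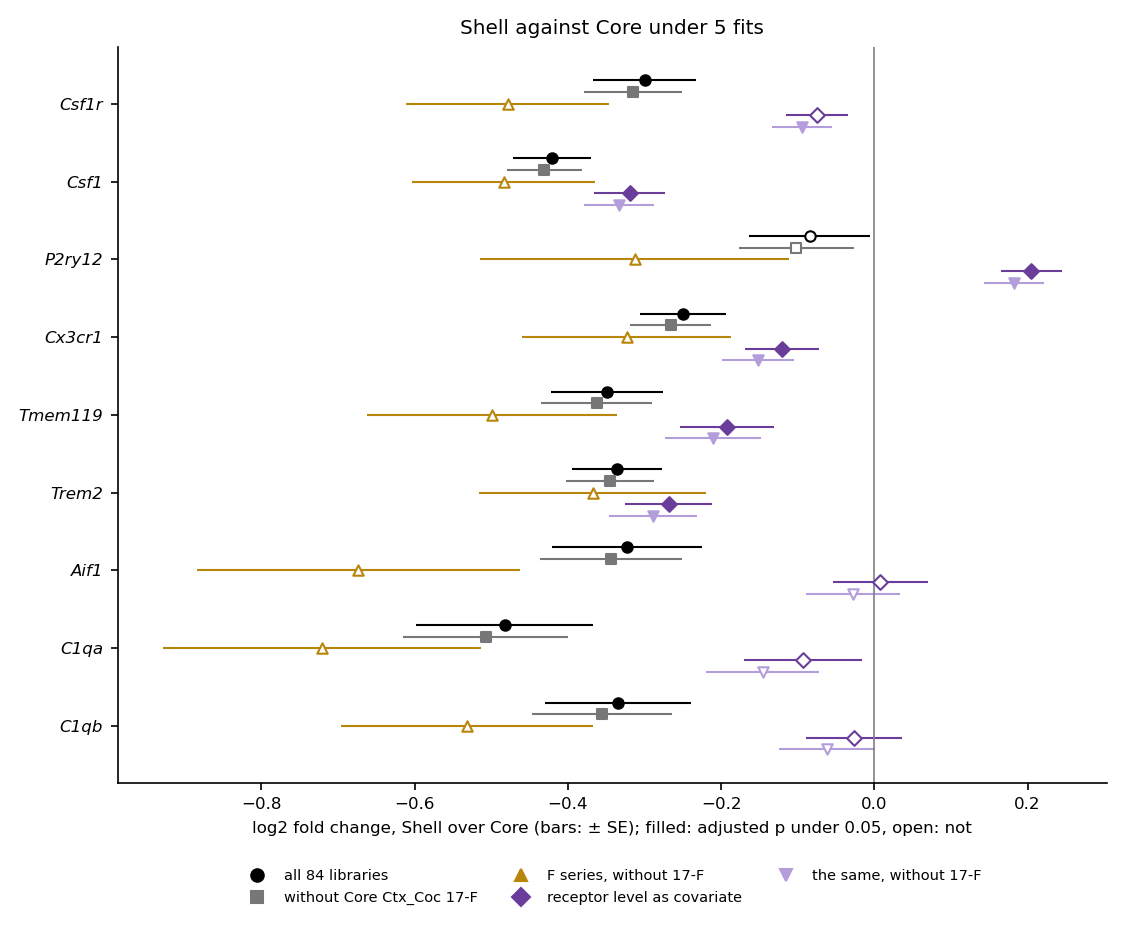
Log2 fold change of Shell over Core (horizontal axis, bars ± SE) for each gene under 5 fits, filled where adjusted p was under 0.05. Csf1 lay between -0.32 and -0.48 in all 5, whereas C1qa ran from -0.72 to -0.09 and P2ry12 from -0.31 to 0.21.

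The receptor-gene level moved with these genes. Over 83 libraries, with group and series means removed, the mean of the 8 microglial genes had r = -0.75 with it, P2ry12 -0.84, Csf1 -0.25 and Trem2 -0.06. These are descriptions over libraries that share depth and scaling. The mean of the 8 also moved with genes of other cells, with r = 0.80 with the myelin gene Mbp, 0.80 with the endothelial gene Cldn5 and 0.66 with the neuronal receptor gene Drd1. The 8 genes summed to 83.4 ± 9.34 CPM in Core series 2 (n = 18) and 120.1 ± 30.0 CPM in Core series 1 (n = 12), where the receptor estimate was 25.8% ± 4.81 and 11.2% ± 9.04 (SD). In Shell the sums were 87.5 ± 5.91 CPM in series 3 (n = 12) and 79.0 ± 8.79 CPM in series 4 (n = 18), at estimates of 19.9% ± 4.51 and 24.9% ± 5.27 (SD).

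**Figure D3:**
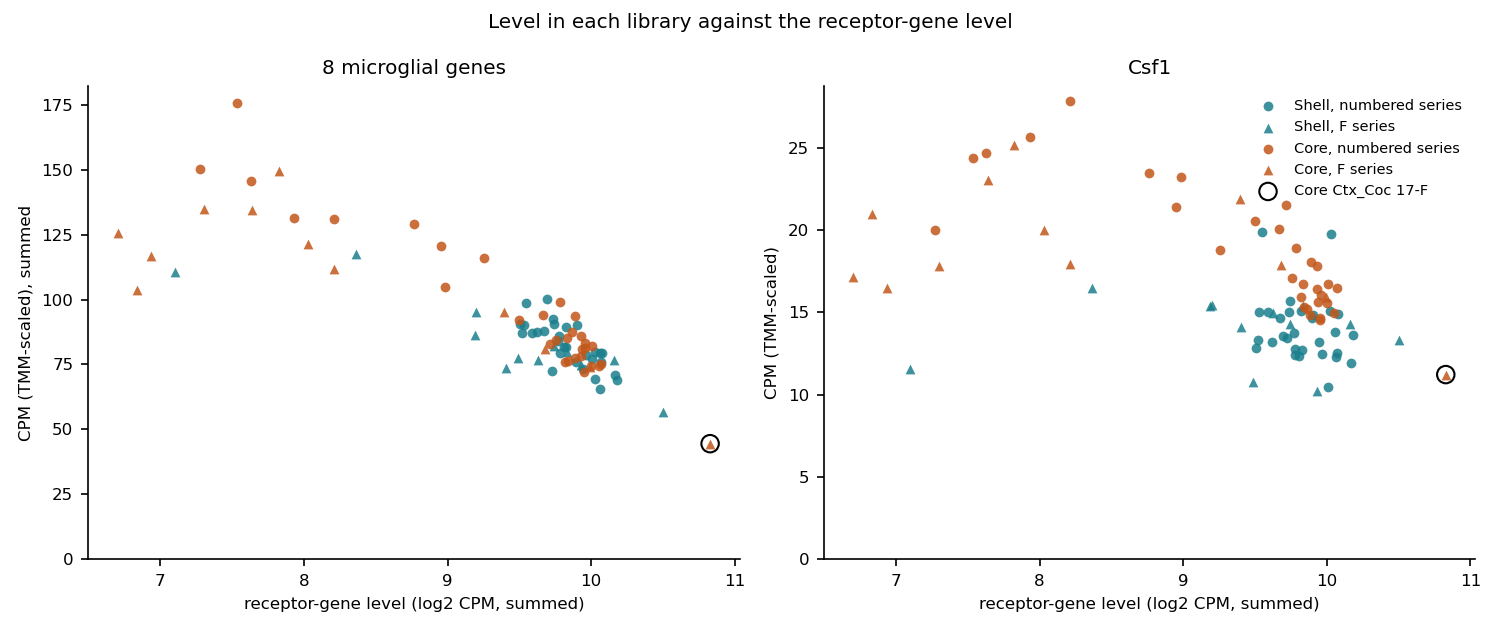
Summed level of the 8 microglial genes (left) and level of Csf1 (right), both in TMM-scaled CPM, against the summed log2 CPM of the receptor genes, 1 point per library. The 8 genes fall as the receptor level rises, down to 44.5 CPM in Core Ctx_Coc 17-F (ringed), and Core libraries spread over more of the axis than Shell libraries.

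With the receptor level as a covariate, 4 members were called lower in Shell and P2ry12 was called higher. Those lower were Csf1 at -0.32 ± 0.05 (adjusted p = 1.85e-08, edgeR), Trem2 at -0.27 ± 0.06, Tmem119 at -0.19 ± 0.06 and Cx3cr1 at -0.12 ± 0.05. P2ry12 stood at 0.21 ± 0.04 (adjusted p = 1.52e-05, edgeR). Csf1r (-0.07 ± 0.04), C1qa (-0.09 ± 0.08), C1qb (-0.03 ± 0.06) and Aif1 (0.01 ± 0.06) did not pass. In that fit 24.2% of all genes were called lower and 27.7% higher, so a call there is common. With the covariate and without 17-F, Csf1r was called lower too, at -0.09 ± 0.04.

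Within the 6 pairs of groups, 4 calls were made for the members, all lower in Shell. Csf1 was called in Ext_Coc (-0.52 ± 0.12, adjusted p = 0.00782, edgeR), in Ctx_Sal (-0.51 ± 0.12, adjusted p = 0.00966, edgeR) and in HC_Coc (-0.46 ± 0.12, adjusted p = 0.0318, edgeR). Trem2 was called in Ctx_Sal, where it had 2.41, 2.86 and 4.29 CPM in Shell libraries and 3.62, 4.83 and 5.38 CPM in Core libraries. The ranges overlapped, all 7 Shell libraries lay below the Core mean, and the log2 fold change was -0.60 ± 0.14 (adjusted p = 0.00896, edgeR). Csf1 did not pass in Ext_Sal (-0.39 ± 0.12), HC_Sal (-0.42 ± 0.12) or Ctx_Coc (-0.22 ± 0.12), where all 3 estimates were below 0. Of all genes, 1.48% were called lower in Ext_Coc, 0.787% in Ext_Sal, 0.0591% in Ctx_Coc, 1.22% in Ctx_Sal, 1.1% in HC_Coc and 0.619% in HC_Sal. Whether the subregion difference varied between conditions was not tested. Without the F series none of the 54 member tests was called.

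Further genes of microglia moved in part. Of 25 other microglia-rich genes, 8 were lower in Shell and 1 higher, beside 8.77% and 4.56% of all genes. The median log2 fold change of the 25 was -0.10 (all genes 0.05). The lowest p belonged to Rgs10, which switches off G-protein signals (-0.58 ± 0.08), Sall1, a transcription factor of microglial identity in the mouse (-0.45 ± 0.08), the lysosomal gene Laptm5 (-0.24 ± 0.05) and Selplg, the P-selectin ligand (-0.40 ± 0.09). The higher one was the tetraspanin gene Cd53 (0.21 ± 0.06). With the receptor level as a covariate 12 were lower, beside 24.2% of all genes. Of the genes named, Selplg (-0.11 ± 0.06) and Cd53 (0.08 ± 0.05) were not called there. Cd53 was named after its value had been seen. Over 47530 bases Cd53 had 9.13 CPM in Shell and 7.87 CPM in Core, beside 17.6 and 18.9 CPM over 41873 bases for P2ry12. The share of evenly falling counts was not estimated for Cd53.

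Of 20 genes for ligands and partners of the members, 4 were lower and none was higher (median -0.07), beside 8.77% and 4.56% of all genes. They were Entpd1, which degrades the nucleotides that P2RY12 senses (-0.17 ± 0.04), the TGF-beta receptor genes Tgfbr1 (-0.31 ± 0.07) and Tgfbr2 (-0.15 ± 0.05), and the complement gene C3 (-0.27 ± 0.08). With the covariate 8 were lower and 5 higher, beside 24.2% and 27.7% of all genes, and Tgfbr1 (-0.09 ± 0.04) was not called. Of 22 activation and inflammation genes, Cd9, a tetraspanin that oligodendrocytes also express, was lower (-0.91 ± 0.07) and Tlr4, the endotoxin receptor gene, higher (0.26 ± 0.09), with a median of 0.02. These counts of 1 each stand beside 8.77% of all genes called lower and 4.56% called higher. With the covariate 9 of the 22 were lower and 2 higher, again beside 24.2% and 27.7%, and Tlr4 (0.09 ± 0.06) was no longer called. Over 13635 bases Tlr4 had 2.50 CPM in Shell and 2.09 CPM in Core, beside 9.92 and 11.8 CPM over 13706 bases for Cx3cr1. The share of evenly falling counts was not estimated for Tlr4.

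Markers of other cells were read beside these values. All 8 myelin genes were lower in Shell, with a median log2 fold change of -1.79 and summed levels of 486 to 2018 CPM in Shell libraries and 187 to 7302 CPM in Core libraries. The 187 CPM belong to 17-F, and without it the Core sums started at 1244 CPM. With the receptor level as a covariate all 8 stayed lower, at -1.42 to -0.996. All 4 genes of oligodendrocyte precursors were lower, with a median of -0.46, but with the receptor level as a covariate 2 of the 4 were called, and Cspg4 (-0.07 ± 0.04) and Pdgfra (0.02 ± 0.06) were not. Of 6 markers of border macrophages, Cd163 was higher (0.31 ± 0.10) and none lower, and with the covariate Cd163 stood at 0.07 ± 0.06 and none of the 6 was called. Their sum ran from 14.6 to 124 CPM in Shell libraries and from 11.5 to 132 CPM in Core libraries, where 17-F held the highest value and the others ended at 86.7 CPM. Of 7 markers of monocytes, neutrophils and lymphocytes none passed. With the covariate Ly6c (-0.31 ± 0.10), Cd3e (-0.23 ± 0.08) and Cd8a (-0.21 ± 0.09) were called lower, beside 24.2% of all genes. The sum of the 7 ran from 1.10 to 13.4 CPM in Shell libraries and from 0.50 to 19.3 CPM in Core libraries. The highest was again in 17-F, and the other Core libraries went up to 15.2 CPM. Astrocyte markers gave 1 higher and 2 lower of 6, endothelial markers 0 higher and 1 lower of 4, projection neuron markers 1 higher and 3 lower of 6, and blood markers 0 of 3. With the covariate Slc1a3, Gja1, Cldn5, Drd1, Drd2 and Alas2 were called higher too, and Pecam1 lower too. Adora2a and Ppp1r1b were then no longer called. In that fit 27.7% of all genes were called higher. No marker of border macrophages or myelin was at 0 in any library, which by itself does not show expression. F13a1 had 35.9 CPM in Shell and 28.5 CPM in Core over 176772 bases, and Mrc1 had 19.2 and 16.0 CPM over 81671 bases. Beside them, P2ry12 had 17.6 and 18.9 CPM over 41873 bases. The share of counts that fall evenly over gene bodies was not estimated for the markers of other cells. The part of these cells and of the receptor level in the lower levels of the members was not tested beyond the fits given.

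Cocaine was set against saline within each condition and subregion, with the series as a covariate in a fit of the 42 libraries of a subregion. No member passed, and no gene of any kind was called in these 8 comparisons (0.0% of 31370 genes in Core and of 30911 in Shell) by edgeR, with 180 to 3407 genes at unadjusted p under 0.05. DESeq2 made 4 calls summed over the 8 comparisons, none of them for a member. Of the 72 member tests, 4 had an unadjusted p under 0.05, namely Csf1 in Core Ctx, Csf1 in both averages over conditions and Csf1r in Core Ctx.

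Csf1 had a lower estimate with cocaine in all 6 comparisons. In Core Ctx it had 11.2, 16.7 and 18.9 CPM in Coc libraries (lowest, median and highest of 7) and 16.4, 23.2 and 25.6 CPM in Sal libraries. The ranges overlapped, and 7 of 7 Coc libraries lay below the Sal mean. The log2 fold change was -0.43 ± 0.11 (unadjusted p = 0.000326, adjusted p = 0.433, edgeR), and without 17-F it was -0.36 ± 0.10 (adjusted p = 1.0, edgeR). Over all alternatives it ran from -0.45 to -0.32, with adjusted p = 0.0714 to 1.0. In the other 5 comparisons Csf1 stood at -0.19 ± 0.10 in Shell Ext, -0.18 ± 0.10 in Shell Ctx, -0.03 ± 0.10 in Shell HC, -0.05 ± 0.11 in Core Ext and -0.02 ± 0.11 in Core HC. In Shell Ctx, 7 of 7 Coc libraries lay below the Sal mean of 15.5 ± 2.39 CPM (SD), at 13.7 ± 1.73 CPM, but the ranges overlapped widely. Averaged over conditions Csf1 was at -0.13 ± 0.06 in Shell (unadjusted p = 0.0259, edgeR) and -0.16 ± 0.06 in Core (unadjusted p = 0.0120, edgeR), with adjusted p = 1.0 in both. The average drug effect in Shell minus that in Core was 0.04 ± 0.10 (adjusted p = 1.0, edgeR).

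**Figure D4:**
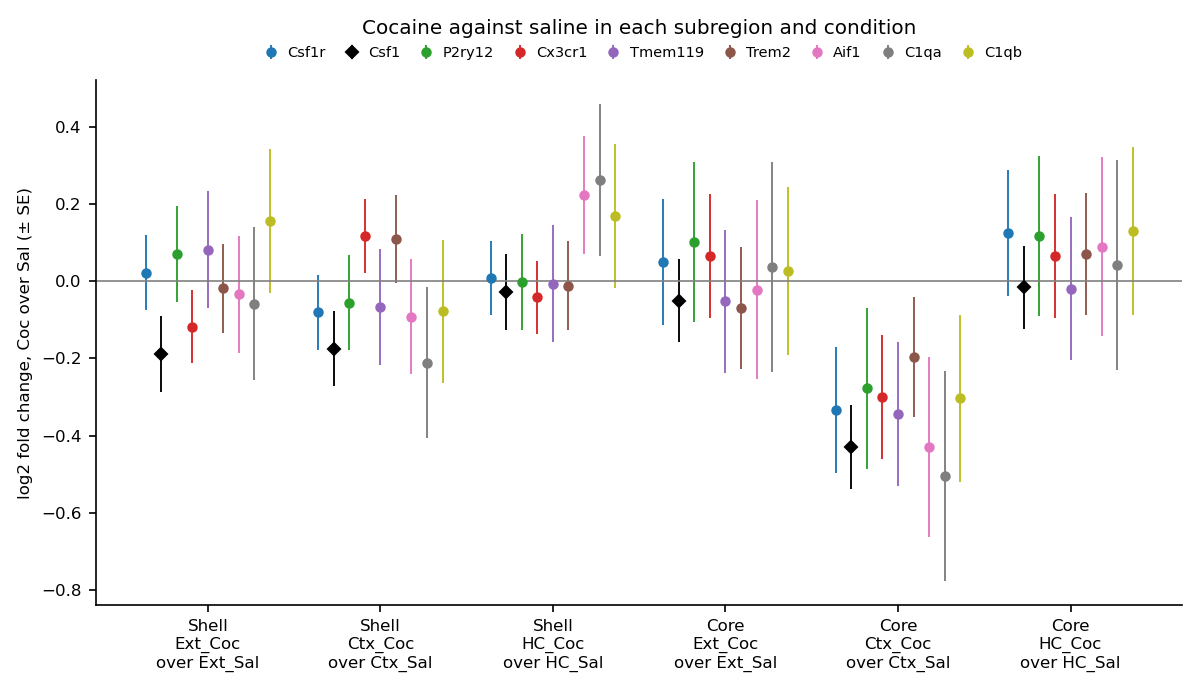
Log2 fold change of Coc over Sal (vertical axis, bars ± SE) for each gene in the 3 conditions of Shell and then of Core. In Core Ctx all 9 genes lie between -0.50 and -0.20, and in the other 5 comparisons they lie on both sides of 0, with none past the threshold in any.

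Each of the other 8 genes had estimates on both sides of 0 outside Core Ctx. In Core Ctx all 9 estimates were below 0, the lowest for C1qa at -0.50 ± 0.27 and the nearest to 0 for Trem2 at -0.20 ± 0.16. C1qa had 1.89, 7.78 and 11.7 CPM in Coc libraries there and 5.49, 9.47 and 18.6 CPM in Sal libraries, with wide overlap, and without 17-F the Coc values started at 6.42 CPM. That pair also differed in the receptor estimate, which was 31.4% ± 29.5 in Core Ctx_Coc and 13.5% ± 10.9 in Core Ctx_Sal (SD, n = 7 each). Without 17-F the Core Ctx_Coc estimate was 21.0% ± 11.8 (SD, n = 6). Its part in the estimates was not tested beyond the covariate, with which the 9 estimates ran from -0.36 to -0.02, and from -0.33 to 0.01 when 17-F was left out as well. In the other 5 comparisons the 9 estimates ran from -0.21 to 0.26, the highest being C1qa in Shell HC at 0.26 ± 0.20.

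Between conditions, 12 comparisons of Ext, Ctx and HC within each drug and subregion gave no call for any gene (0.0% by edgeR, with 72 to 4921 genes at unadjusted p under 0.05), and 3 calls by DESeq2, none a member. These comparisons share groups with each other and with those of cocaine, so their values are not independent. Of 108 member tests 8 had an unadjusted p under 0.05. Among saline libraries of Core, all 9 members had higher estimates in Ctx than in HC (0.08 to 0.38). Trem2 had 3.62, 4.83 and 5.38 CPM in Core Ctx_Sal and 2.65, 3.46 and 5.03 CPM in Core HC_Sal, a log2 fold change of 0.37 ± 0.16 (adjusted p = 0.890, edgeR). Csf1 was at 0.27 ± 0.11 and Csf1r at 0.34 ± 0.16 in the same comparison. The receptor estimate was 13.5% ± 10.9 in Core Ctx_Sal, the lowest mean of the 12 groups, and 19.7% ± 9.49 in Core HC_Sal (SD, n = 7 each). Core Ctx_Sal had the highest mean of the 12 groups for all members but P2ry12, which was highest in Core HC_Coc at 20.7 ± 8.93 CPM (SD, n = 7). In Shell with cocaine, C1qa was at -0.42 ± 0.20 in Ext against HC, with 4.00, 5.24 and 7.79 CPM in Ext_Coc libraries and 4.82, 7.76 and 10.5 CPM in HC_Coc libraries (adjusted p = 0.464, edgeR). There the receptor estimate was 23.9% ± 8.27 in Ext_Coc and 17.0% ± 7.81 in HC_Coc (SD, n = 7 each). The part of the receptor level in these estimates was not tested beyond the covariate fit, in which no member was called between conditions.

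Whether the drug effect differed between conditions or subregions was tested in 7 comparisons, with no gene called (0.0%, 53 to 3712 genes at unadjusted p under 0.05, edgeR) and 1 call by DESeq2, no member. The estimate furthest from 0 for Csf1 was the drug effect in Core Ctx minus that in Core HC, at -0.41 ± 0.15 (unadjusted p = 0.0103, adjusted p = 0.351, edgeR). The 111 genes of the lists above gave no call in any of the 27 comparisons within subregions or of drug effects.

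Across libraries the median correlation among the 8 microglial genes was above that with Csf1 until the receptor level was removed. With group and series means removed, and Core Ctx_Coc 17-F left out, the 28 pairs among the 8 had r from -0.02 to 0.85 with a median of 0.62. The highest were C1qa with C1qb (0.85), Csf1r with C1qb (0.84) and Csf1r with C1qa (0.83). Trem2 had r of -0.02 to 0.31 with the other 7. Csf1 had r of 0.12 to 0.47 with the 8, with a median of 0.38. With the receptor level removed as well, a choice made after the data had been seen, the 28 pairs ran from -0.13 to 0.72 with a median of 0.30, and C1qa with C1qb stayed the highest at 0.72. The Csf1 pairs then ran from -0.17 to 0.43 with a median of 0.32. These values describe 83 libraries that share depth and scaling, and carry no test.

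**Figure D5:**
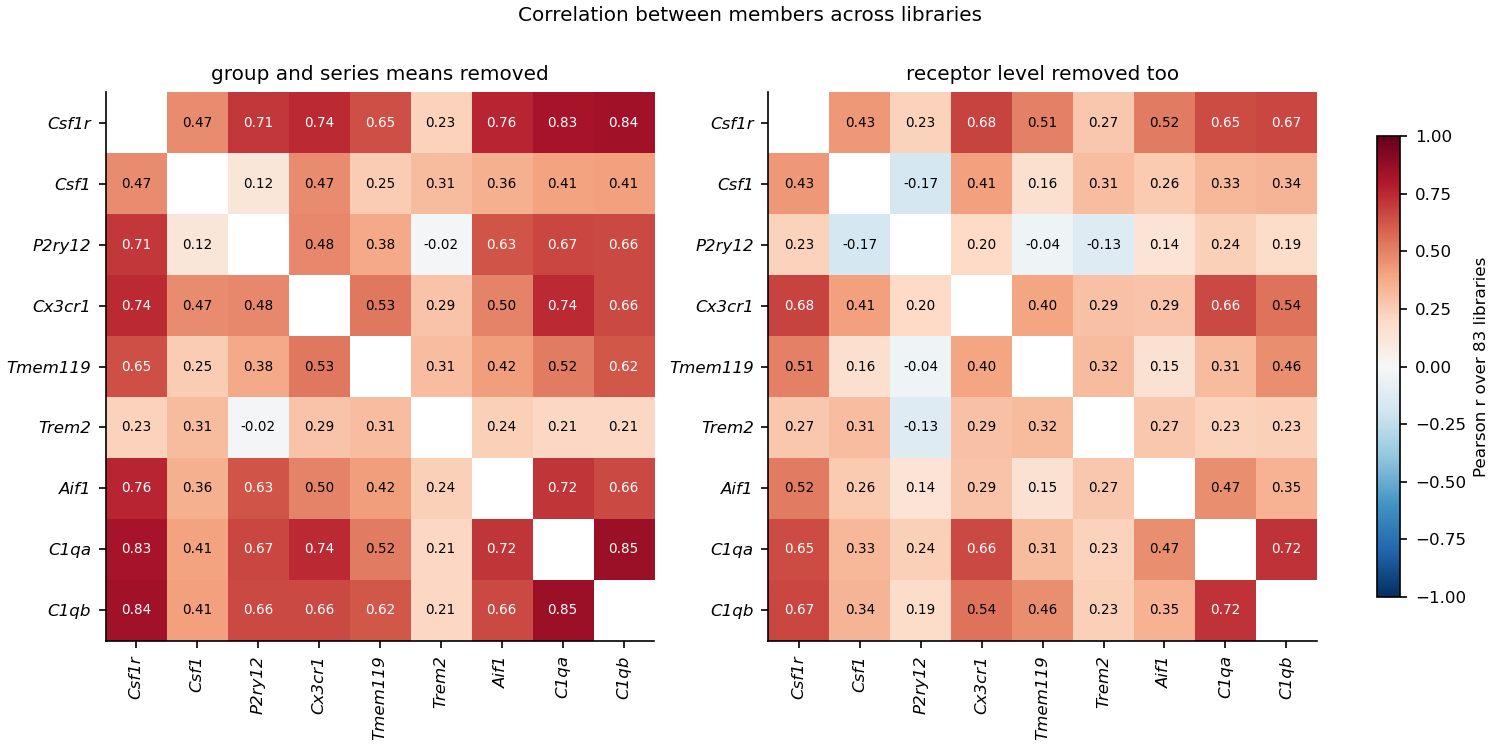
Pearson correlation (colour and number) between members over 83 libraries, after group and series means were removed (left) and after the receptor-gene level was removed as well (right). Csf1r, C1qa and C1qb form the tightest block in both, and P2ry12 has no r above 0.24 on the right.

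The 6 genes most like the mean of the 8 among 15485 genes were Cst3 (r = 0.90), Ctss (0.89), Tmem176b (0.89), Rpl8 (0.89), Abhd4 (0.89) and Rpl32 (0.88). Cst3 encodes cystatin C and Ctss encodes the lysosomal protease cathepsin S, while Rpl8 and Rpl32 encode ribosomal proteins. With the receptor level removed these 6 were again the highest, at 0.73 to 0.77. Most like Csf1 were Tcn2 (0.71), Niban2 (0.64), Cd9 (0.63), Slco2b1 (0.62), Lyz2 (0.61) and Pgpep1 (0.61). Tcn2 encodes a vitamin B12 carrier and Lyz2 encodes a lysozyme. With the receptor level removed Tcn2, Niban2, Cd9 and Slco2b1 stayed among the 6, joined by Rrbp1 and Trpv3, with Tcn2 at 0.70.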

How the data were processed

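RNA from accumbens Shell and Core was extracted with the Direct-zol kit and made into libraries with the SMARTer Stranded Total RNA-seq v3 Pico kit, per the labels' protocols. The authors deposited whole-number counts per gene and, from the same libraries, FPKM values, which are scaled by library total and by gene lengths that span introns. featureCounts and build mRatBN7.2 are named in the submitters' processing notes, without versions. The strand setting is not given in the sources used here.

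Counts were tested with edgeR 4.0.16 (R 4.3.3): TMM scaling, filterByExpr, a quasi-likelihood test, two-sided, with Benjamini-Hochberg adjustment over all genes tested and a threshold of 0.05. Shell against Core used all 84 libraries with 12 groups and an F-series term. The drug and condition comparisons used the 42 libraries of a subregion with the series as a term. There were 34 comparisons. CPM are TMM-scaled, and correlations used log2 CPM with a prior count of 2. Libraries held 13.6 to 22.5 M counts, and PCR reads are not independent molecules. The fits were tested on simulated data with known changes. For Shell against Core, 20 of 50 genes were recovered at 1.25-fold and 43 of 50 at 1.5-fold. For Core Ext_Coc against Ext_Sal, 0 of 50 were recovered at 1.25-fold, 9 at 1.5-fold and 19 at 2-fold. A missing call for the drug therefore does not show that a change of such size is absent. Alternatives used DESeq2 1.42.0, no filter, no series term, no F series, the F series by itself, no 17-F, a replicate block, the compared groups by themselves and the receptor-gene level as a covariate. The members and gene lists were chosen with earlier results of these data known. Outside the members, up to 4 genes of lowest p were named per list. A result for 1 further gene of the lists is not reported here.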

Additional observations from a re-analysis of the deposited data

Results flagged for a closer look

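Of 108 sets of 7 libraries (9 genes in 12 groups), 5 held a library far from the others, by the size of the gap to its nearest neighbour relative to the whole range. Chance gives about 1 in 20 such sets. Csf1 was at 19.8 CPM in Shell Ext_Sal library 3-6, with the nearest at 15.7 CPM. Cx3cr1 was at 8.28 CPM in Shell HC_Coc library 4-9, the lowest, with the nearest at 9.64 CPM. P2ry12 was at 26.0 CPM in Shell Ctx_Sal library 24-F, with the nearest at 18.3 CPM, and at 29.3 CPM in Shell HC_Coc library 6-F, with the nearest at 18.8 CPM. Tmem119 was at 12.6 CPM in Core Ctx_Sal library 1-18, with the nearest at 7.55 CPM.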

How the results depend on the processing

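Of the 9 members, 8 were lower in Shell with both DESeq2 settings, with no filter, with no series term and without Core Ctx_Coc 17-F, and 7 with no F series, where Aif1 was not called. The count was 4 with the receptor level as a covariate, 5 with that covariate and without 17-F, 0 in the F series by itself and 0 there without 17-F. Under the covariate P2ry12 reversed to 0.21, and to 0.18 without 17-F, and Aif1 reversed to 0.0079. The cause was not tested. Csf1 stayed between -0.48 and -0.32 and Trem2 between -0.37 and -0.27. Counted in either direction, the 4 calls by group became 10 with the DESeq2 Wald test, 7 with DESeq2 size factors and 8 with the covariate. They became 9 with the covariate and without 17-F, and 1 with the groups compared by themselves. They became 0 with no F series, 0 in the F series by itself and 0 there without 17-F, where fewer libraries were tested. Over all genes, calls summed over the 6 pairs of groups were 2281 in the main fit and 4036 with the DESeq2 Wald test. For alternatives whose share of all genes is not given above, a count does not single out the members. The other comparisons gave 0 member calls under every alternative. The drug estimate of Csf1 near 0 turned to 0.00074 in Core HC with the groups compared by themselves, and to 0.0032 and 0.0012 in Shell HC with the DESeq2 Wald test and size factors. The median r among the 8 moved to 0.30 with the receptor level removed, against 0.62. The groups compared by themselves give no average over groups. Leaving out other single libraries was not run.

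Libraries with the same number within the paired series correlated at a median of 0.22 over 30 pairs (-0.61 to 0.75), with 17 over 0.1. Outside these pairs the median between Core and Shell libraries was -0.0025. In 4 of the 30 pairs the Core library correlated best with its own partner. The labels do not say whether like numbers mark the same animal. The main fit did not pair them, and the replicate block did. With the replicate block 7 members were lower, Aif1 (-0.20) and P2ry12 not passing, and 4 calls were made by group. The share of all genes called with the replicate block is not given here. Counts of 31 to 104 for Trem2 limit what could be detected.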
